A study of Homo sapiens with 18 samples.

Results

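The difference between the radiation responses of A549 and H446 cells was measured gene by gene. A549 is a human lung adenocarcinoma line, and H446 is labelled a human small cell lung cancer line. For each gene, the change from control to 10 Gy X-ray in H446 was subtracted from the same change in A549, so that a positive difference means a response that was more upward in A549. The members were the 12661 of 18475 listed genes whose value reached 1 FPKM in 3 or more of the 6 libraries of either line. Of these, 10811 passed in both lines, 1182 in A549 only and 668 in H446 only.

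The study treated human lung lines with 10 Gy of X-rays and sequenced their mRNA 24 h later, and no separate time is given for the controls. The 4 groups used here were A549 control, A549 10 Gy, H446 control and H446 10 Gy, each with 3 libraries, which make 12 of the 18 libraries of the series. All cells are labelled wild type in genotype and carried no other treatment, and both lines were grown in the same medium with serum. The values are taken as FPKM, fragments scaled by transcript length and library size, and a response is the difference of the group means of log2(FPKM + 1), which understates the change of low genes.

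Ionising radiation breaks DNA, and the checkpoint kinases ATM and ATR then slow the cycle at the G1/S and G2/M borders. The transcription factor p53 is stabilised in this process and switches on genes of arrest, repair and death, while E2F and the DREAM complex control the genes of replication and mitosis. Stress pathways run beside them, among them the integrated stress response led by ATF4, the AP-1 factors, the YAP co-activator, which links cell contact and tension to growth genes, and the antioxidant factor NRF2.

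The libraries of each group correlated at 0.997 to 0.998 (Pearson, log2 values), and the FPKM of a library summed to between 484169 and 501302 in A549 and between 461255 and 481987 in H446. Read counts were not analysed here, so the number of reads behind a value is not known. The study's methods say that experiments were repeated, but the labels do not say whether the 3 libraries of a group came from separate cultures, and p-values may then measure the spread between these libraries only. The H446 libraries did not show the markers that usually define small cell lung cancer. CHGA and NCAM1 stayed at or below 0.05 FPKM in all 6 H446 libraries and SYP at or below 0.29, while the simple epithelial keratins KRT7, KRT8 and KRT18 lay between 949 and 1393 FPKM. The other epithelial markers listed were low in H446, with KRT19 at 1.51 to 2.47 FPKM, EPCAM at 0.79 to 1.29 FPKM and CDH1 at 0.49 to 0.74 FPKM. UCHL1, a deubiquitinase often used as a neuroendocrine marker, was at 15.3 to 23.5 FPKM in H446 and at 495 to 565 FPKM in A549. In A549, the retinal dehydrogenase ALDH1A1 was between 1523 and 1910 FPKM, and it stayed at or below 0.81 FPKM in H446. Markers of blood, stromal and endothelial cells (8 of 9 in the table) summed to 34.7 to 42.9 FPKM in A549 and 18.4 to 22.1 FPKM in H446. PTPRC stayed at or below 0.09 FPKM and VWF and CDH5 at or below 0.05 FPKM in all 12 libraries. Other members were expressed, CD68 at 26.45 to 33.47 FPKM in A549 and 7.67 to 10.74 FPKM in H446. COL1A1 was at 8.1 to 9.6 FPKM in A549 and 4.08 to 4.54 FPKM in H446. PECAM1 was at 3.4 to 4.03 FPKM and DCN at 3.06 to 4.36 FPKM in H446.

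Both lines responded broadly, and the responses of the lines bore little relation to each other. In A549, 3185 genes rose (25.2% of those tested) and 3250 fell (25.7%), and in H446, 1778 rose (14%) and 2847 fell (22.5%), with limma and a Benjamini-Hochberg adjusted p under 0.05. Under quantile normalization, 2145 rose and 2088 fell in H446, so that its excess of falls depended on the scaling. The response itself differed between the lines for 5791 genes (45.7%), with the A549 response above that of H446 for 3226 (25.5%) and below it for 2565 (20.3%), so that 55.7% of the called differences were positive. Most of these differences were small. Their median size was 0.37 on the log2 scale (quartiles 0.27 and 0.51), and 153 genes (1.21%) reached a difference of at least 1, of which 84 were positive and 69 negative. Across the 10811 genes expressed in both lines, the A549 and H446 responses correlated at 0.07 (Pearson) and 0.06 (Spearman), and 5688 had the same sign. This describes genes, which are not independent replicates, and each line's 6 libraries are shared by all points.

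Of the genes expressed in both lines, the difference was called for 5128 (47.4%). All 10811 were sorted, where the calls allowed it, into 4 classes. A gene was called opposite when both responses and the difference passed the threshold with opposite signs, which held for 1061 genes (9.81%). It was called shared when both responses passed with the same sign, which held for 1363 genes (12.6%). With all 18 libraries in 1 fit, 575 genes were opposite and 786 shared. Of the shared genes, 386 differed in the size of the response and 977 did not pass the test of the difference. It was called A549-only when the A549 response and the difference passed and the H446 response did not (2313 genes, 21.4%), and H446-only in the mirror case (1166 genes, 10.8%). A line-only label does not show that the other line did not respond, since a small change can miss the threshold.

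**Figure D1:**
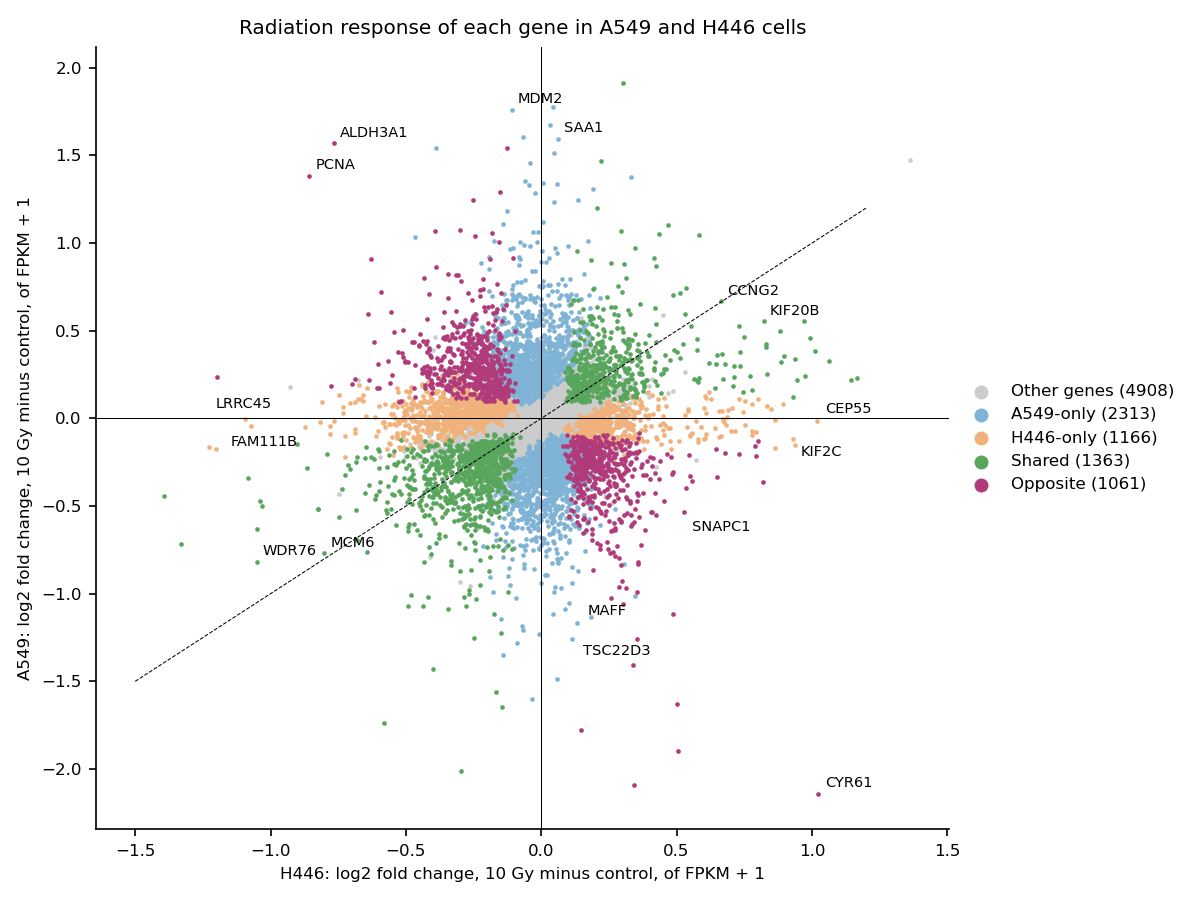
Each point is 1 of the 10811 genes expressed in both lines, with its log2 fold change (10 Gy minus control, of FPKM + 1) in H446 on the horizontal axis and in A549 on the vertical axis. Colours mark the 1061 opposite, 1363 shared, 2313 A549-only and 1166 H446-only genes and grey the others, and the dashed line is where both responses would be equal. PCNA and ALDH3A1 lie at the upper left and CYR61 alone at the lower right, while the A549-only genes reach further along their axis than the H446-only genes.

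The opposite genes split into 559 that rose in A549 and fell in H446 (5.17%) and 502 that fell in A549 and rose in H446 (4.64%). Under quantile normalization these numbered 427 and 555, so that the larger direction was the reverse. Their responses were mostly modest, with medians of 0.28 in A549 and -0.23 in H446 for the first group and of -0.26 and 0.21 for the second. In 11 genes, 7 of the first group and 4 of the second, both responses reached 0.5 in size. The response to radiation went along with the GC content of the transcript in H446 (Spearman -0.46 across 12532 genes) but not in A549 (-0.01), and the difference between the lines with it (0.27). The opposite genes that rose in A549 had a median GC content of 55.5%, against 41.8% for those that fell. When the trend on GC content was removed from each library, 321 of the 559 (57.4%) and 321 of the 502 (63.9%) were still opposite. The part of GC content in the single genes of this class was not tested beyond that. Each of the 12 opposite genes described next remained opposite under quantile normalization, after rescaling the libraries to equal totals, after removal of the GC trend, and without each of the 12 libraries in turn, which together make 15 alternatives. With all 18 libraries in 1 fit, the difference of GDF15 missed the threshold (1.31, adjusted p = 0.137), and that of the other 11 passed.

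PCNA, the sliding clamp of the replication fork, ranked first among the opposite genes that rose in A549, by the smaller of its 2 responses. In A549, it stood at 141, 144 and 146 FPKM in the controls and at 380, 400 and 353 FPKM after 10 Gy. H446 controls began at nearly the same level, 150, 152 and 160 FPKM, and the irradiated libraries were at 85.8, 87.7 and 80.3 FPKM. The groups did not overlap in either line, and the irradiated libraries moved away from the common start in opposite directions. The log2 fold change was 1.38 ± 0.05 (SE) in A549 and -0.86 ± 0.05 in H446, and the difference was 2.24 (95% interval 2.10 to 2.38, adjusted p = 1.24e-11, limma). PCNA (Entrez 5111) lies at chr20:5114953-5126622 of GRCh38.

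ALDH3A1, an aldehyde dehydrogenase that detoxifies lipid aldehydes, differed even more between the lines. A549 controls were at 665, 661 and 645 FPKM and irradiated A549 cells at 2030, 1942 and 1895 FPKM, a 2.98-fold increase of the mean. H446 held far less of it, 53.7, 49.6 and 53.2 FPKM in the controls and 34.3, 27.8 and 28.9 FPKM after 10 Gy. The irradiated libraries were clear of the controls in both lines. The difference in response was 2.34 (95% interval 2.16 to 2.52, adjusted p = 1.7e-10).

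SFN encodes 14-3-3 sigma, a p53 target that holds cells in G2. It rose from 33.0, 34.5 and 35.5 FPKM to 53.01, 53.8 and 50.4 FPKM in A549. H446 controls were higher, at 113, 106 and 111 FPKM, and fell to 70.9, 69.1 and 70.9 FPKM. The responses were nearly equal in size and opposite in sign, 0.60 ± 0.04 and -0.64 ± 0.04, with a difference of 1.24 (adjusted p = 1.14e-09). The lines thus lay closer to each other after irradiation than before it, with no overlap of any of the 4 groups.

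GDF15, a secreted stress cytokine, rose from 76.7, 81.9 and 72.8 FPKM to 132, 116 and 136 FPKM in A549 and fell from 53.7, 50.04 and 55.5 FPKM to 35.5, 35.3 and 33.9 FPKM in H446 (difference 1.31, adjusted p = 2.71e-08, and 0.137 with all 18 libraries in 1 fit). FAM20C, the kinase that phosphorylates secreted proteins in the Golgi, rose 1.96-fold in A549 and was at 0.594 of the control mean in H446 (difference 1.54). SDC1, the cell surface proteoglycan syndecan-1, rose from between 39.0 and 41.5 FPKM to between 59.6 and 63.2 FPKM in A549 and fell from between 15.9 and 16.2 FPKM to between 10.3 and 11.1 FPKM in H446 (difference 1.16). In all 3 genes the irradiated and control libraries were separate in each line.

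The opposite genes that fell in A549 were led by CYR61 (also CCN1), a matrix protein and a direct target of YAP. A549 controls were at 191, 188 and 186 FPKM, and irradiated A549 cells at 38.3, 43.9 and 44.0 FPKM. H446 went from 118, 114 and 120 FPKM to 237, 237 and 247 FPKM. Before irradiation A549 held more CYR61 than H446, and after it H446 held more than A549, without overlap of any groups. The log2 fold changes were -2.14 ± 0.05 and 1.02 ± 0.05, and the difference of -3.16 (95% interval -3.30 to -3.02, adjusted p = 3.71e-13) was the largest among the named genes. CYR61 (Entrez 3491) lies at chr1:85580761-85583950.

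CTGF (also CCN2), its close relative, behaved alike. It fell from 40.6, 42.1 and 43.3 FPKM to 10.5, 10.4 and 10.6 FPKM in A549 and rose from 11.0, 11.1 and 11.4 FPKM to 15.4, 17.2 and 16.2 FPKM in H446 (difference -2.41, adjusted p = 4.02e-12). The irradiated A549 libraries thus ended just below the unirradiated H446 libraries.

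DDIT3 (CHOP), the death-promoting factor of the integrated stress response, fell from 83.6, 88.2 and 84.4 FPKM to 25.5, 26.7 and 28.7 FPKM in A549. In H446 it was low and more scattered, 7.68, 5.74 and 7.37 FPKM in the controls and 10.4, 12.6 and 8.03 FPKM after 10 Gy. The H446 groups were separate, but replicate 3 after 10 Gy was only just above the highest control. The difference was -2.13 (95% interval -2.48 to -1.78, adjusted p = 2.03e-07), a wide interval for this group of genes.

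STC2, a secreted glycoprotein of calcium and phosphate balance that is induced by ER stress, had a log2 fold change of -1.12 ± 0.04 in A549 and 0.49 ± 0.04 in H446, so that the irradiated libraries of both lines overlapped, at 30.6 to 31.2 FPKM in A549 and 28.98 to 31.9 FPKM in H446. SNAPC1, a subunit of the complex that transcribes small nuclear RNA genes, fell from between 46.5 and 47.7 FPKM to between 30.0 and 34.1 FPKM in A549 and rose from between 16.8 and 17.1 FPKM to between 24.0 and 25.6 FPKM in H446 (difference -1.06). CXCL8 (interleukin 8), the neutrophil chemokine, fell from 566, 522 and 532 FPKM to 370, 371 and 431 FPKM in A549 and rose from 11.9, 11.4 and 12.8 FPKM to 16.7, 18.7 and 15.1 FPKM in H446 (difference -0.92, adjusted p = 5.69e-06). The level of CXCL8 stayed far higher in A549 than in H446 in every library.

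**Figure D2:**
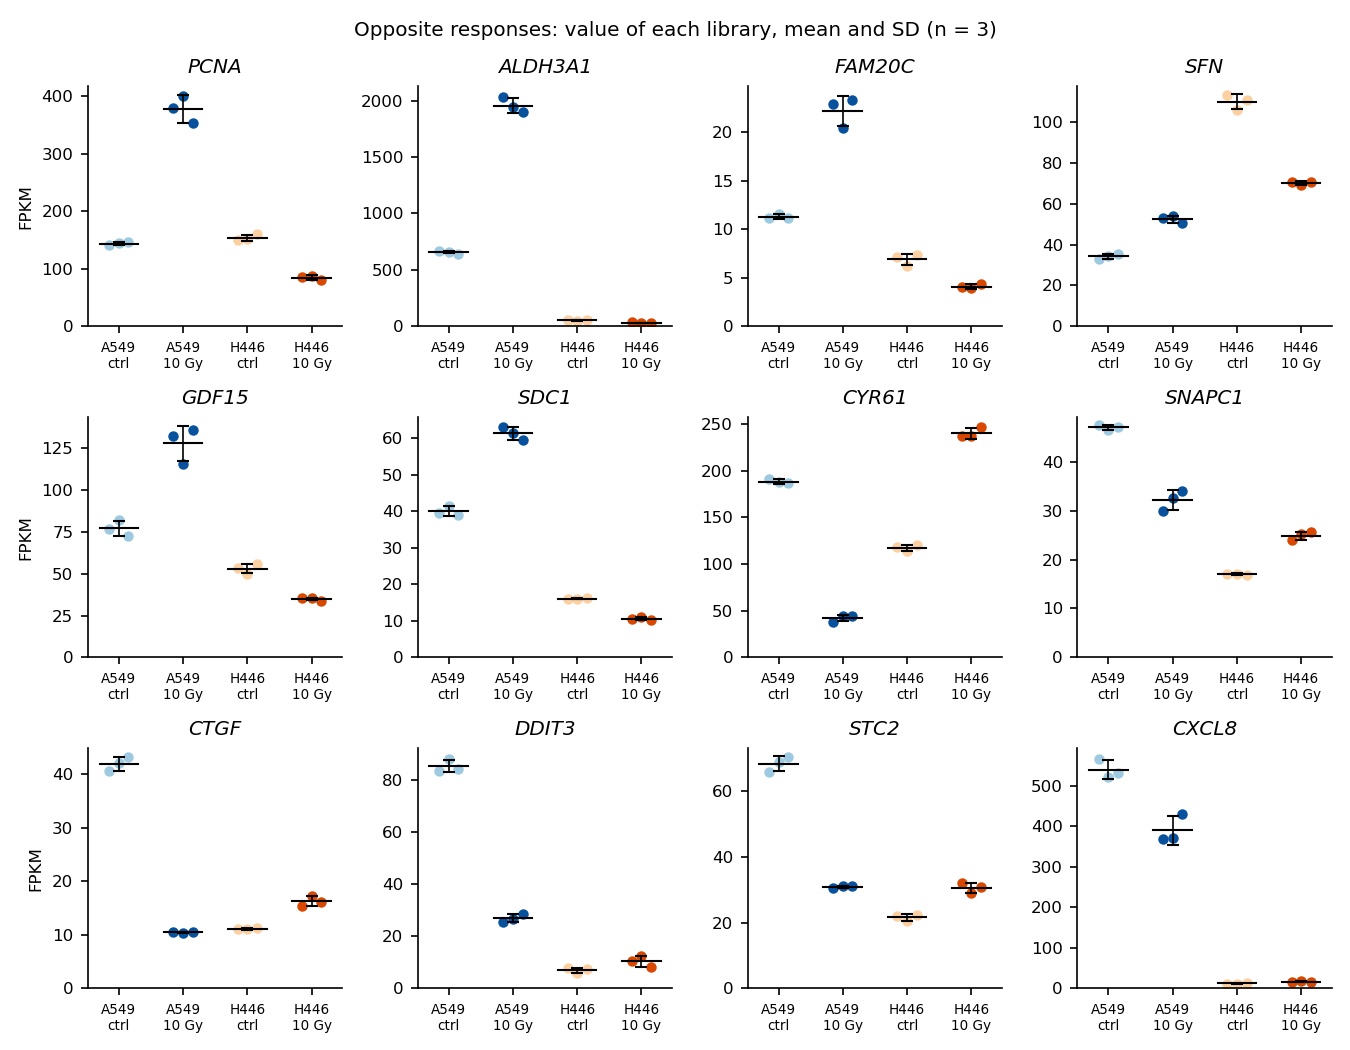
Each panel gives the FPKM of 1 of 12 opposite genes in the 3 libraries of each group (points), with the group mean (line) and SD (bars), on an axis that starts at 0. In the first 6 genes, PCNA to SDC1, the irradiated A549 libraries lie above their controls and the irradiated H446 libraries below theirs, and in the other 6, CYR61 to CXCL8, the order is the reverse.

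The promoters of the first-ranked opposite gene in each direction that had an entry are given here, to show what stands in front of genes that moved in opposite ways. They are 300 bases from RefSeq (GRCh38.p14) that end 50 bases into the gene, with bases counted from 1 at the 5′ end. PCNA is at chr20:5126573-5126872 on the minus strand and SNAPC1 at chr14:61762170-61762469 on the plus strand, and capitals mark the motif matches of either strand.
PCNA: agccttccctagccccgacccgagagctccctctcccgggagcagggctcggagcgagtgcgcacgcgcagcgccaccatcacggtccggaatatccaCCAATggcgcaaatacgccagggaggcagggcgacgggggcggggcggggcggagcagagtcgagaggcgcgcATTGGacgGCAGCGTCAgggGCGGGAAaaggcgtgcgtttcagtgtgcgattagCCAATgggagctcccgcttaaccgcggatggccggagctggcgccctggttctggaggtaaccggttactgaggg
SNAPC1: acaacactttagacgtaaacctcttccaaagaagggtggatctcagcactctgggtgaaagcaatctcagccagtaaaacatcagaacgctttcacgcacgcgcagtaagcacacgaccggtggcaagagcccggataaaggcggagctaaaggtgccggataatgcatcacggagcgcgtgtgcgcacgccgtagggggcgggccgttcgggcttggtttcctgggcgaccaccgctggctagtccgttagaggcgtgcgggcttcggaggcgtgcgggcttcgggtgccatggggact
In PCNA, the capitals are CCAAT boxes (CCAAT) at bases 99 to 103, 172 to 176 and 226 to 230, an E2F core (TTCCCGC) at 192 to 198 and an antioxidant response element (TGACNNNGC) at 180 to 188. In SNAPC1, none of the 8 motifs searched was found in this window.

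Genes of the p53 pathway marked the widest gap between the lines in which A549 was higher. Of 30 p53 targets, the difference was called for 28 (93.3%, against 45.7% of all genes), with A549 above H446 in 27. In A549, 27 rose and 2 fell (against 25.2% and 25.7% of all genes), and in H446, 6 rose and 5 fell (against 14% and 22.5% of all genes), the latter shares near those of all genes. The median response was 0.88 in A549 and -0.01 in H446, where the sign of the latter turned to 0.03 under quantile normalization and 0.01 after rescaling, against -0.00 and -0.03 over all genes. The median difference was 0.89, against 0.04 over all genes.

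MDM2, the ubiquitin ligase that degrades p53 in a feedback loop, was the leading A549-only gene among those with a mean of at least 5 FPKM in each line. It rose from 28.4, 25.8 and 25.6 FPKM to 89.6, 102 and 87.0 FPKM in A549. H446 was at 11.6, 12.1 and 11.2 FPKM before and at 11.8, 10.4 and 9.94 FPKM after irradiation, and these groups overlapped. The difference was 1.87 (95% interval 1.67 to 2.07, adjusted p = 3.76e-09). Without H446 10 Gy replicate 1, the H446 response of -0.17 passed the threshold (adjusted p = 0.0499) and MDM2 counted as opposite.

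CDKN1A (p21), the CDK inhibitor of G1 arrest, rose from 101, 106 and 103 FPKM to 318, 294 and 297 FPKM in A549. In H446 it was at 75.7, 72.8 and 71.7 FPKM in the controls and 72.4, 63.6 and 65.9 FPKM after 10 Gy. The H446 groups overlapped, and the fall of 0.13 ± 0.05 only just passed (adjusted p = 0.0482). CDKN1A remained opposite in 2 of the 15 alternatives and in none of the 3 scalings, while its difference of 1.67 (adjusted p = 4.53e-10) kept its call.

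FDXR, the mitochondrial ferredoxin reductase, rose from 45.0, 47.0 and 42.4 FPKM to 157, 156 and 154 FPKM in A549 and stayed between 3.46 and 4.11 FPKM in H446, where the groups overlapped (difference 1.73). POLH, the polymerase that copies past ultraviolet lesions, was at 6.01, 5.46 and 6.76 FPKM and then at 17.7, 19.2 and 18.3 FPKM in A549, against 6.63 to 7.51 and 6.79 to 7.07 FPKM in H446 (difference 1.5). Both lines thus began at about the same level of POLH and ended apart. With CDKN1A, the opposite members were GDF15, BAX, ZMAT3 and DDB2, 5 of the 28 expressed in both lines (against 9.81% of all such genes). Under quantile normalization or after rescaling the count was 3, near that share. DDB2, a sensor of damaged DNA, had 1.07 ± 0.05 in A549 and -0.30 ± 0.05 in H446.

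A smaller set of p53 targets rose in both lines, 6 of the 28 expressed in both (against 4.68% of all such genes). The 6 shared members were TP53INP1 (1.92 and 0.30), BTG2 (1.47 and 0.22), RRM2B (0.96 and 0.13), CCNG1 (0.87 and 0.42), PLK2 (0.72 and 0.51) and TIGAR (0.55 and 0.15 in A549 and H446), each with a larger response in A549. PLK2 was the member with the smallest called difference of these, 0.20 (adjusted p = 0.014). SESN2, which is also an ATF4 target, was the member lower in A549 (-0.57 against 0.10). TNFRSF10B and TNFRSF10A, the death receptors of TRAIL, did not pass the test of the difference (0.07 and -0.11).

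Mitosis genes showed the reverse order in every member. All 30 differed between the lines (100%, against 45.7% of all genes), each with the lower response in A549, and all 30 rose in H446 (against 14% of all genes). In A549, 13 rose and 3 fell (against 25.2% and 25.7% of all genes). The median response was 0.08 in A549 and 0.80 in H446, with a median difference of -0.70. The 13 shared rises (against 4.68% of the genes expressed in both lines) included KIF20A (0.38 and 1.01), HMMR (0.33 and 1.06), UBE2C (0.24 and 0.97) and AURKA (0.12 and 0.93). The H446-only members included PLK1 (0.05 and 0.85), BUB1 (0.08 and 0.89), CCNA2 (-0.08 and 0.79) and CDC20 (0.01 and 0.69). Bulk RNA cannot tell more cells in mitosis or G2 from more RNA of these genes per cell.

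CCNB1, the cyclin that starts mitosis with CDK1, rose from 42.8, 46.0 and 42.2 FPKM to 62.5, 71.6 and 60.1 FPKM in A549 and from 95.3, 94.6 and 97.6 FPKM to 184, 194 and 188 FPKM in H446. The groups were separate in both lines, and the response was larger in H446 (difference -0.42, 95% interval -0.58 to -0.25, adjusted p = 0.000485). KIF20B, a kinesin of cytokinesis, also rose in both, 0.55 ± 0.05 in A549 and 0.82 ± 0.05 in H446. Its difference of -0.27 missed the threshold with all 18 libraries in 1 fit (adjusted p = 0.2, limma).

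KIF2C, the kinesin that corrects wrong spindle attachments, was the leading H446-only rise among genes with at least 5 FPKM on average in each line. In H446 it rose from 41.4, 39.3 and 42.2 FPKM to 77.9, 76.5 and 82.2 FPKM. A549 was at 26.5, 27.3 and 25.7 FPKM in the controls and at 23.1, 26.4 and 23.5 FPKM after 10 Gy, with overlap and an adjusted p of 0.0589. The difference was -1.05 (adjusted p = 4.85e-08). After rescaling, or without A549 10 Gy replicate 2, the A549 fall passed and KIF2C counted as opposite. CEP55, which recruits the abscission machinery, rose 2.05-fold in H446 and was 0.991 of the control mean in A549 (difference -1.03), and MTFR2, a mitochondrial fission regulator, rose 1.93-fold in H446 and was 0.879 of the control mean in A549 (difference -1.03), where the fall passed without A549 10 Gy replicate 2.

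In 3 mitosis genes the A549 response was a fall, and in 5 after rescaling or with the GC trend removed. AURKB, the kinase of the chromosomal passenger complex, went from 46.2, 48.9 and 44.2 FPKM to 31.5, 33.0 and 30.8 FPKM in A549 and from 31.7, 29.8 and 30.0 FPKM to 40.5, 41.6 and 40.6 FPKM in H446 (difference -0.94, adjusted p = 3.15e-08). A549 held more AURKB than H446 before irradiation and less after it, without overlap of the lines at either point. CENPA, the histone of the centromere, had -0.21 ± 0.06 and 0.79 ± 0.06, and ECT2, the exchange factor that directs the cleavage furrow, had -0.40 and 0.53.

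DNA replication genes mostly fell in H446, and fewer of them fell in A549. Of 34 genes, 29 fell and 1 rose in H446 (against 22.5% and 14% of all genes), and 16 fell and 6 rose in A549 (against 25.7% and 25.2% of all genes). The median response was -0.44 in H446 and -0.11 in A549, and the difference was called for 21 (61.8%, against 45.7% of all genes), all with the higher response in A549 here and with 1 lower under quantile normalization. The 16 shared falls (against 7.93% of the genes expressed in both lines) included all 6 subunits of the MCM helicase, MCM2 to MCM7. Their responses in H446 ran from -0.44 (MCM7) to -1.33 (MCM5). MCM10, which acts with the helicase, was also among them, at -0.16 in A549 and -0.21 in H446.

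MCM5, the subunit with the largest fall in H446, was at 20.6, 22.6 and 21.6 FPKM and then 12.7, 13.2 and 12.3 FPKM in A549, and at 79.4, 76.8 and 76.8 FPKM and then 31.4, 30.3 and 29.2 FPKM in H446. All irradiated libraries lay below their controls, and the fall was larger in H446 (difference 0.61, 95% interval 0.48 to 0.74, adjusted p = 2.24e-06). MCM6 fell alike in both lines, by 0.77 in A549 and by 0.80 in H446, with an interval of the difference from -0.09 to 0.16 (adjusted p = 0.675). MCM4 fell by 0.15 ± 0.04 in A549 and by 0.90 ± 0.04 in H446.

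The 4 opposite replication genes, a share near the 9.81% of all genes expressed in both lines, were PCNA, LIG1, GINS1 and RPA1. LIG1, the ligase that joins Okazaki fragments, was at 16.8, 16.0 and 18.1 FPKM and then 19.3, 20.6 and 17.9 FPKM in A549, where the groups overlapped, and fell from between 16.9 and 18.2 FPKM to between 10.9 and 11.5 FPKM in H446 (difference 0.78). Its A549 call was lost without A549 10 Gy replicate 2 and without A549 control replicate 1 or 2. GINS4 and RPA3 were A549-only rises (0.55 and 0.27), while FEN1 (-0.60) and CDT1 (-0.69) were H446-only falls.

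Nucleotide supply was mixed, with 6 of 9 genes differing (66.7%, against 45.7% of all genes), 3 in each direction (3 higher and 1 lower in A549 under quantile normalization). TYMS, the thymidylate synthase, was opposite, rising from between 66.5 and 71.0 FPKM to between 91.2 and 96.4 FPKM in A549 and falling from between 79.3 and 82.2 FPKM to between 50.1 and 55.3 FPKM in H446 (difference 1.05, adjusted p = 6.41e-09). UNG, which removes uracil from DNA, fell further in H446 (-1.39 against -0.44), and CTPS1, which makes CTP, fell further in A549 (-1.25 against -0.25). DUT fell in both lines with a difference of 0.03 that did not pass.

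G1 control genes differed in 11 of 16 tested (68.8%, against 45.7% of all genes). CCNE1, the cyclin that starts S phase, fell from 26.0, 21.5 and 22.9 FPKM to 10.1, 9.24 and 9.62 FPKM in H446 and rose from 7.45, 8.17 and 7.44 FPKM to 8.97, 9.40 and 9.34 FPKM in A549, so that both lines ended at a like level (difference 1.44, adjusted p = 2.35e-08). CCNE2 fell by 1.2 ± 0.08 in H446 and changed by -0.18 ± 0.08 in A549, which was not called (difference 1.03). E2F1 fell in both (-0.63 and -1.05), CDK6 was an A549-only fall (-0.42) and CDKN1B an H446-only rise (0.36).

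The shared genes were 506 that rose in both lines (4.68%) and 857 that fell in both (7.93%), against 652 and 681 under quantile normalization. CCNG2, an atypical cyclin of arrested cells, led the rises. It went from 9.70, 9.47 and 9.03 FPKM to 15.8, 15.5 and 15.3 FPKM in A549 and from 12.4, 12.4 and 11.7 FPKM to 21.0, 19.1 and 19.7 FPKM in H446. The log2 fold changes were 0.67 ± 0.05 and 0.66 ± 0.05, and the interval of the difference ran from -0.14 to 0.15. CD24, a surface mucin with near-identical copies in the genome that may share its reads, rose from between 102 and 108 FPKM to between 175 and 176 FPKM in A549 and from between 65.0 and 69.9 FPKM to between 98.5 and 99.1 FPKM in H446 (difference 0.21, adjusted p = 0.00287).

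WDR76, a substrate adaptor of a ubiquitin ligase, led the falls, from between 11.7 and 12.3 FPKM to between 6.12 and 6.70 FPKM in A549 and from between 28.02 and 29.7 FPKM to between 13.0 and 13.7 FPKM in H446. The difference of 0.23 (adjusted p = 0.00788) missed the threshold under quantile normalization (0.17, adjusted p = 0.0589). EXOSC5, a subunit of the RNA exosome, fell by 0.69 ± 0.07 and by 0.68 ± 0.07, with an interval of the difference from -0.23 to 0.21.

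The promoters of CCNG2, at chr4:77156957-77157256 on the plus strand, and of MCM6, at chr2:135876394-135876693 on the minus strand, stand for the shared rise and the shared fall. The window and the meaning of the capitals are as above.
CCNG2: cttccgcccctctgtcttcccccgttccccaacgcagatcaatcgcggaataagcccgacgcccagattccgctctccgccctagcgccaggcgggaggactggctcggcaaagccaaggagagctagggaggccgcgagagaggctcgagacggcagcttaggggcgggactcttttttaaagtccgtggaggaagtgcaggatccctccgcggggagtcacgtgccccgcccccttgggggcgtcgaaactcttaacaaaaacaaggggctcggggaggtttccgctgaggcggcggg
MCM6: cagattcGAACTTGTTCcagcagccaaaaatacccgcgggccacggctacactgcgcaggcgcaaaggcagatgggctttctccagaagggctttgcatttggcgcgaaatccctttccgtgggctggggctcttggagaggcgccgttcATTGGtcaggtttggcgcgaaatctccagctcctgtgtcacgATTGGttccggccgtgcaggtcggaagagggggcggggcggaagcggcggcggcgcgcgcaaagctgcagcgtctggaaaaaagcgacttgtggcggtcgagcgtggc
MCM6 held CCAAT boxes at bases 151 to 155 and 193 to 197 and a p53 decamer at 8 to 17, and CCNG2 held none of the motifs. The E2F core was searched only as TTCCCGC, so other forms of an E2F site are not marked in any window.

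H446-only falls numbered 749 (6.93%) and H446-only rises 417 (3.86%), against 543 and 472 under quantile normalization. With the GC trend removed, 426 of the 749 (56.9%) and 242 of the 417 (58%) kept their class. LRRC45, a centrosome linker protein, fell from 17.9, 17.3 and 15.4 FPKM to 7.70, 6.96 and 7.41 FPKM in H446, while A549 was at 6.58, 7.21 and 7.41 FPKM and then at 6.43, 7.30 and 7.47 FPKM. The irradiated H446 libraries thus came to overlap with the A549 libraries. The difference was 1.09 (95% interval 0.89 to 1.30, adjusted p = 7.29e-07). FAM111B, a protease linked to replication, fell from between 38.5 and 40.5 FPKM to between 17.7 and 19.0 FPKM in H446 and stayed between 4.53 and 5.61 FPKM in A549 (difference 1.03). CENPX, a histone-fold protein of the centromere and of the Fanconi pathway, fell from between 55.5 and 65.1 FPKM to between 30.9 and 35.1 FPKM in H446 and lay between 57.3 and 65.3 FPKM in all 6 A549 libraries (difference 0.83).

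LRRC45 and CENPX are neighbours on chromosome 17, transcribed away from each other, and their 300-base windows overlap by 74 bases. The promoters of the leading H446-only rise and fall were KIF2C at chr1:44739587-44739886 and LRRC45 at chr17:82023055-82023354, both on the plus strand.
KIF2C: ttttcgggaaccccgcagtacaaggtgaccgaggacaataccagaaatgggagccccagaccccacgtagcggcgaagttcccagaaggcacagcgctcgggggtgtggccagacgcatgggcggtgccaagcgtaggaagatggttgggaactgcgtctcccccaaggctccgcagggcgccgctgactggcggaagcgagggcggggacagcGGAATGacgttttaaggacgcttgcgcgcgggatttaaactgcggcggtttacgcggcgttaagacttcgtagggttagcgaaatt
LRRC45: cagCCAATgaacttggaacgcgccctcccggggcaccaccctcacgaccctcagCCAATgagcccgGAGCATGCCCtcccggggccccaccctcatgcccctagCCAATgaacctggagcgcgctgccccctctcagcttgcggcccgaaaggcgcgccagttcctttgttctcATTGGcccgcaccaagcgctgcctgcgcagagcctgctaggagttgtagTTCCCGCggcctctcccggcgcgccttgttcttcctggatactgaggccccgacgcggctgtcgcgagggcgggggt
LRRC45 held CCAAT boxes at bases 4 to 8, 55 to 59, 105 to 109 and 175 to 179, an E2F core at 224 to 230 and a p53 decamer at 67 to 76. KIF2C held 1 TEAD site (GGAATG) at 215 to 220.

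Across the classes, the shares of promoters with a cell cycle motif varied. Of the 10314 tested genes with a RefSeq promoter, 9.68% held the cell cycle homology region (CHR, TTTGAA, either strand), and the share was 22.2% among H446-only rises, 17.8% among shared rises and 15% among opposite genes that fell in A549. It was 3.28% among opposite genes that rose in A549. The E2F core was found in 10.5% of all promoters, in 18% of shared falls and in 15% of H446-only falls. The AP-1 site (TGANTCA) was found in 4.49% and the ATF4 element (CARE, TGATGNAA) in 1.62% of all promoters. Promoter GC content differed too, with medians of 62.7% in H446-only rises, 62.8% in shared rises, 67.7% in shared falls, 68% in H446-only falls, 64% in opposite genes that fell in A549 and 68.7% in those that rose, against 65.3% over all promoters, and its part in these shares was not tested. A match describes letters only and is not a site of binding.

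YAP targets were the list with the most opposite genes for its size. All 10 had the lower response in A549 (100%, against 45.7% of all genes), 9 fell in A549 (against 25.7% of all genes) and 9 rose in H446 (against 14%), and 8 were opposite (against 9.81% of the genes expressed in both lines). Median responses were -0.76 in A549 and 0.24 in H446. Beside CYR61 and CTGF, ANKRD1, a titin-binding repressor, fell from 38.9, 39.9 and 42.7 FPKM to 8.57, 8.60 and 9.02 FPKM in A549 and rose from 2.36, 2.46 and 1.52 FPKM to 2.73, 3.07 and 2.93 FPKM in H446 (difference -2.43, adjusted p = 6.38e-09). AMOTL2, which holds YAP at cell junctions, had -0.96 and 0.29, and AJUBA, a LIM adaptor that binds LATS kinases, -0.87 and 0.19. The exceptions were AXL, a receptor kinase that fell in A549 only (-0.57), and F3, tissue factor, which rose in H446 only (0.29).

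Most AP-1 and immediate early genes fell in A549. Of 13 tested, 12 fell in A549 and none rose (against 25.7% and 25.2% of all genes), while 4 rose and 2 fell in H446 (against 14% and 22.5% of all genes), and 12 differences were called (92.3%, against 45.7% of all genes), 11 of them lower in A549. Median responses were -0.99 in A549 and 0.05 in H446. ATF3, a stress-induced repressor, fell from 27.1, 27 and 28.7 FPKM to 13.3, 12.8 and 11.96 FPKM in A549 and rose from 4.64, 4.78 and 4.48 FPKM to 6.49, 5.54 and 5.83 FPKM in H446 (difference -1.36, adjusted p = 1.8e-08). KLF6, a zinc finger tumour suppressor, was likewise opposite (-0.99 ± 0.05 and 0.35 ± 0.05), as was FOSL1 (-1.02 and 0.26). MYC (-1.21), JUN (-0.89), JUNB (-0.99) and the phosphatase DUSP1 (-0.99) were A549-only falls. JUND went the other way, with a larger fall in H446 (-0.51 against -0.24). After rescaling or with the GC trend removed, 0 members of the list were called higher in A549.

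EGR1, an immediate early transcription factor, passed the filter in A549 only. It fell from 25.2, 20.8 and 23.7 FPKM to 6.12, 5.78 and 5.63 FPKM in A549 and stayed between 0.37 and 0.74 FPKM in H446, too low for a like fall to show there. Further A549-only falls were TSC22D3, a glucocorticoid-induced leucine zipper protein (86.8, 85.8 and 85.3 FPKM, then 35.0, 35.4 and 35.7 FPKM), TNFRSF12A, the receptor of TWEAK (log2 fold change -1.23 ± 0.05), and MAFF, a small MAF factor (-1.17 ± 0.10). In H446 the responses were 0.12 for TSC22D3, -0.01 for TNFRSF12A and 0.13 for MAFF, none of them called, and each passed as an H446 rise once the GC trend was removed, with 0.17, 0.18 and 0.29. TSC22D3 also counted as opposite under quantile normalization and without H446 10 Gy replicate 2.

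All 15 genes of the integrated stress response fell in A549, and 14 did under quantile normalization or after rescaling, when VLDLR, a lipoprotein receptor, missed the threshold (adjusted p = 0.0798 and 0.0574), while 25.7% of all genes fell there. In H446 4 rose and 7 fell (against 14% and 22.5% of all genes). The difference was called for 14 (93.3%, against 45.7% of all genes), each lower in A549. The median response was -0.98 in A549 and -0.05 in H446, where the latter turned to 0.05 once the GC trend was removed. TRIB3, a pseudokinase that dampens ATF4, fell from 91.7, 90.0 and 90.4 FPKM to 22.9, 21.9 and 20.5 FPKM in A549 and from 17.6, 17.6 and 17.7 FPKM to 14.5, 15.3 and 12.8 FPKM in H446. Both falls were free of overlap and very unequal, -2.01 ± 0.05 and -0.30 ± 0.05 (difference -1.71, adjusted p = 1.41e-09).

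PPP1R15A (GADD34), which restores translation, was opposite (-1.41 ± 0.06 in A549, 0.34 ± 0.06 in H446). ASNS, the asparagine synthetase, fell by 1.65 in A549 and by 0.15 in H446, and the serine synthesis enzymes PHGDH (-0.98 and -0.27) and PSAT1 (-1.03 and -0.24) fell in both lines. ATF4 itself was an A549-only fall (-0.63 against -0.05). CEBPB was the member whose difference did not pass (-0.02).

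**Figure D3:**
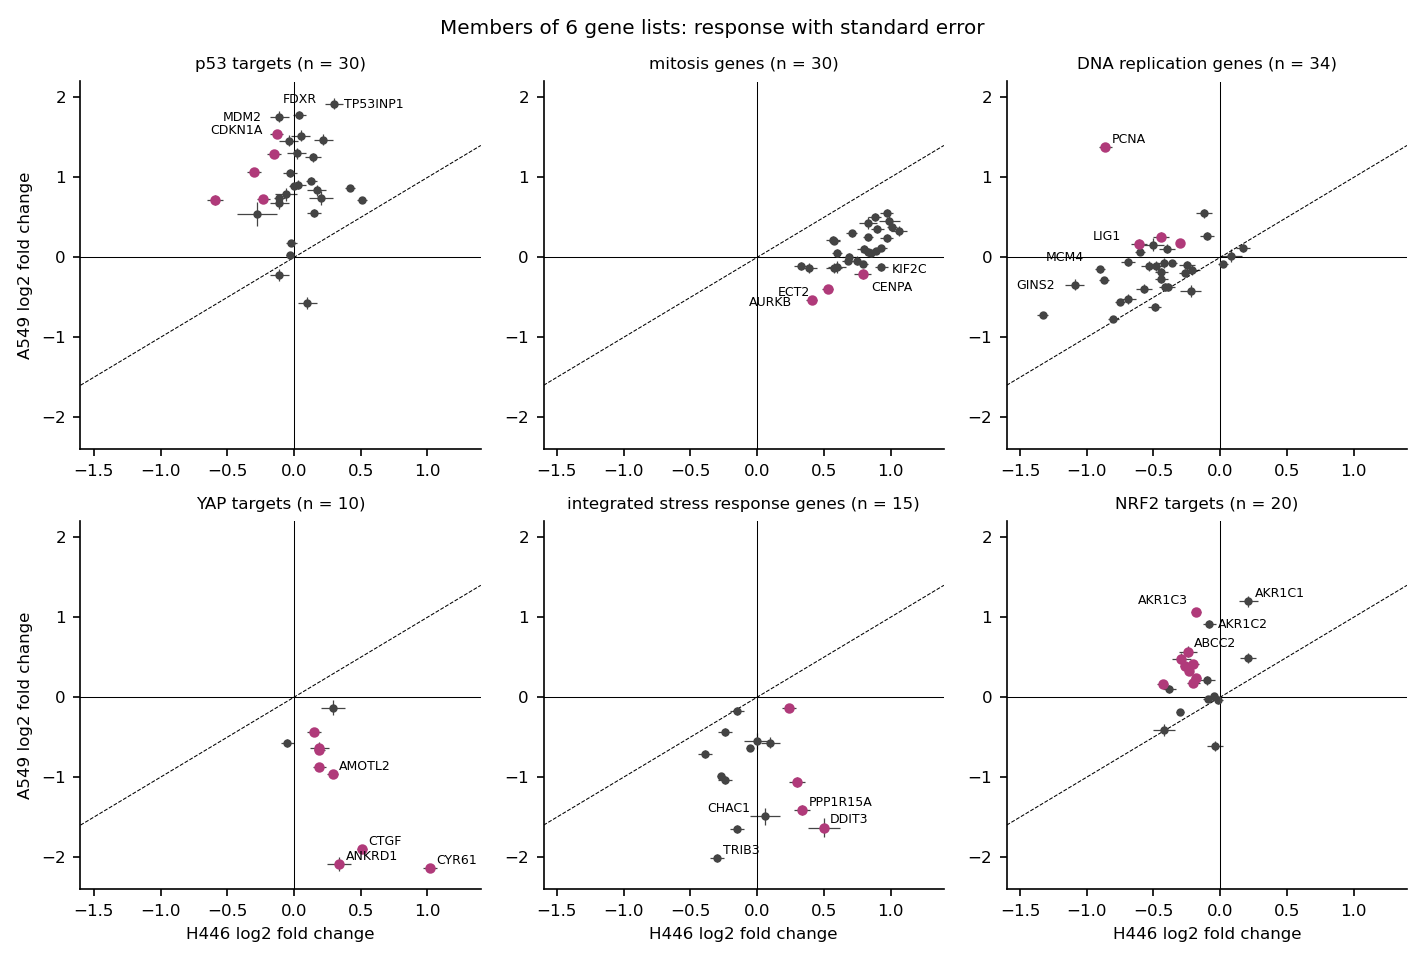
Each panel plots the members of 1 of 6 gene lists by their log2 fold change (10 Gy minus control, of FPKM + 1) in H446 (horizontal) and A549 (vertical), with bars for the standard error and larger purple points for opposite genes. The dashed line marks equal responses. The p53 targets lie above it except for SESN2 and TNFRSF10A, all 30 mitosis genes and all 10 YAP targets lie below it, and PCNA stands apart at the upper left of the replication panel.

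NF-kB and cytokine genes were lower in A549 for 13 of 16 called differences (84.2% of 19 tested, against 45.7% of all genes). In A549 12 fell and 3 rose (against 25.7% and 25.2% of all genes), and in H446 7 rose and 2 fell (against 14% and 22.5% of all genes). IL1A, an alarmin cytokine, fell from 11.1, 11.6 and 11.3 FPKM to 4.58, 5.54 and 6.12 FPKM in A549 and overlapped in H446 (17.9, 15.4 and 17.2 FPKM, then 14.3, 15.6 and 16.6 FPKM, difference -0.84). IL6 was opposite (-0.45 and 0.28). CCL20, a chemokine for dendritic cells and Th17 cells, fell in A549 from 51.1, 51.5 and 39.6 FPKM to 22.1, 21.5 and 35.5 FPKM. In H446 it was at 0.37 to 0.73 FPKM and then 0.90 to 1.37 FPKM, below the filter. NFKBIA (0.23), the inhibitor of NF-kB, and IL1B (0.31) rose in A549 only, while TNFAIP3 (0.28), CXCL1 (0.39) and BIRC3 (0.33) rose in H446 only. CXCL5 rose in both lines (0.57 and 0.27), but its mean in H446 was 0.12 FPKM, below the filter. The 7 rises in H446 thus include CXCL5 and CCL20, both below the filter there.

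SAA1, an acute phase protein with close copies, was the second-ranked A549-only rise among genes with a mean of at least 5 FPKM in each line. It went from 2.60, 3.59 and 2.02 FPKM to 9.74, 9.98 and 10.7 FPKM in A549, and H446 overlapped at 7.33 to 9.88 FPKM and 7.54 to 10.1 FPKM (difference 1.53, adjusted p = 1.75e-05).

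Of 19 interferon-stimulated genes tested, 10 rose and 4 fell in A549, where 25.2% of all genes rose and 25.7% fell, and 8 rose and none fell in H446, where 14% rose and 22.5% fell. The difference was called for 10 (52.6%, near the 45.7% of all genes), 5 in each direction, and for 3 higher and 6 lower in A549 with the GC trend removed. IFIT1 rose from between 1.08 and 1.27 FPKM to between 3.33 and 4.15 FPKM in A549 and from between 30.9 and 31.6 FPKM to between 39.7 and 48.2 FPKM in H446 (difference 0.63, adjusted p = 0.000205). DDX58 (RIG-I), the sensor of uncapped RNA, was opposite, with 22.7, 22.1 and 22.1 FPKM before and 17.9, 16.9 and 17.7 FPKM after irradiation in A549 and 45.0, 46.5 and 45.5 FPKM before and 72.1, 67.5 and 77.5 FPKM after it in H446 (difference -0.98). ISG15, a ubiquitin-like modifier, was far higher in H446 (972 to 1157 FPKM against 7.75 to 14.4 FPKM) and rose by 0.41 ± 0.11 in A549 only. Its class held in 10 of the 15 alternatives, and the difference of 0.46 (adjusted p = 0.0267) missed the threshold with the GC trend removed (0.0958), with no filter on low values (0.0962), with all 18 libraries in 1 fit (0.234), and without A549 10 Gy replicate 3 (0.0621), H446 10 Gy replicate 2 (0.0662) or H446 control replicate 1 (0.059) or 3 (0.0505).

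More NRF2 targets rose than fell in A549, and more fell than rose in H446. The difference was called for 15 of 20 (75%, against 45.7% of all genes), 14 of them higher in A549. In A549 13 rose and 3 fell (against 25.2% and 25.7% of all genes), in H446 2 rose and 12 fell (against 14% and 22.5% of all genes), and 9 were opposite (against 9.81% of the genes expressed in both lines). The median response was 0.22 in A549 and -0.19 in H446. AKR1C3, a hormone-reducing aldo-keto reductase, rose from 347, 347 and 326 FPKM to 725, 691 and 707 FPKM in A549 and fell from 214, 213 and 220 FPKM to 187, 198 and 185 FPKM in H446 (difference 1.24, adjusted p = 9.6e-10). AKR1C1 and AKR1C2 differed by 0.99 and 1.0, and these near-identical genes may share reads. Opposite too were HMOX1 (0.48 and -0.29), which breaks down haem, GCLM (0.41 and -0.20), which makes glutathione, and TKT (0.39 and -0.26) and PGD (0.33 and -0.23) of the pentose phosphate pathway. SLC7A11, the cystine carrier and also an ATF4 target, was an A549-only fall (-0.61).

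Glycolysis genes pointed the same way at a smaller size. Of 20, 15 differed (75%, against 45.7% of all genes), 13 of them higher in A549 (10 under quantile normalization), with medians of 0.13 in A549 and -0.14 in H446. In H446, 12 fell and none rose (against 22.5% and 14% of all genes), a count that dropped to 9 under quantile normalization and to 6 once the GC trend was removed, when 1 rose. ENO2, an enolase, rose from 22.8, 24.9 and 21.5 FPKM to 38.3, 37.1 and 39.4 FPKM in A549 and fell from 20.6, 20.3 and 21.0 FPKM to 15.9, 14.7 and 15.2 FPKM in H446 (difference 1.12, adjusted p = 2.56e-08). PFKL and PFKFB3, of the phosphofructokinase step, differed by 0.55 and 0.59 and kept an opposite response in 14 and 10 of the 15 alternatives. SLC2A1, the glucose carrier, had 0.04 in both lines, and HK2 (-0.34) and the lactate carrier SLC16A1 (-0.37) fell in A549 only.

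Respiratory chain genes differed least, 3 of 16 (18.8%, against 45.7% of all genes). The response of SDHA (difference 0.36) and COX7A2 (0.35) was higher in A549, and that of SDHB (-0.21) lower. Under quantile normalization the response was higher for 4 genes and lower for 1. Cholesterol and fatty acid synthesis genes differed in 11 of 23 (47.8%), near the 45.7% of all genes. FASN, the fatty acid synthase, rose by 0.37 in A549 and fell by 0.29 in H446, a fall that missed the threshold once the GC trend was removed (-0.10, adjusted p = 0.101), and CYP51A1 of sterol synthesis fell by 0.53 in A549 and rose by 0.11 in H446 (opposite in 7 of the 15 alternatives).

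Genes of ER folding and its control moved in both directions. The difference was called for 10 of 12 (83.3%, against 45.7% of all genes), 7 higher and 3 lower in A549. XBP1, the transcription factor of the unfolded protein response, fell from between 92.1 and 94.9 FPKM to between 52.3 and 54.2 FPKM in A549 only (difference -0.86), HERPUD1, of ER-associated degradation, fell by 0.54 in A549 and rose by 0.32 in H446, and HSPA5 (BiP) was also opposite (-0.20 and 0.22). CALR (0.36), PDIA4 (0.35), DNAJC3 (0.29) and MANF (0.27) rose in A549 only, as did EDEM1 (0.23), which like HERPUD1 belongs to ER-associated degradation. CRELD2 differed by 0.59.

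Repair of double-strand breaks was covered by a list of homologous recombination and a list of end joining. Of 18 homologous recombination and Fanconi genes, 4 differed (22.2%, under the 45.7% of all genes), 2 in each direction, and 2 were higher and 4 lower in A549 under quantile normalization. EXO1, the nuclease that resects ends, fell from between 23.02 and 24.4 FPKM to between 11.8 and 13.7 FPKM in A549 and from between 20.4 and 21.3 FPKM to between 16.4 and 18.5 FPKM in H446 (difference -0.60). BLM, a helicase, had a difference of -0.44, FANCL one of 0.42 and FANCA, which fell in H446 only, one of 0.36. FANCD2 rose in both (0.39 and 0.49). Of 9 end joining genes 4 differed (44.4%, near the 45.7% of all genes), with XRCC6 (Ku70) at -0.31, DCLRE1C (Artemis) at -0.25, TP53BP1 at 0.22 and XRCC5 (Ku80) at 0.18. After rescaling, 0 were higher and 2 lower in A549. The class of DCLRE1C held in 7 and that of TP53BP1 in 9 of the 15 alternatives, and the difference of DCLRE1C missed the threshold with the replicate number as a block (-0.25, adjusted p = 0.0663).

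Checkpoint kinase and mediator genes differed in 9 of 13 (69.2%, against 45.7% of all genes), 5 higher and 4 lower in A549 (3 and 4 after rescaling). RAD9A, part of the clamp that signals damage, was opposite (0.28 ± 0.06 and -0.41 ± 0.06), CLSPN, the adaptor of CHK1, fell in H446 only (-0.61), and WEE1, the kinase that blocks CDK1, rose in H446 only (0.21). The class of WEE1 held in 11 of the 15 alternatives, and its H446 rise missed the threshold once the GC trend was removed (0.12, adjusted p = 0.134). ATM (0.40) and TOPBP1 (0.25) rose in A549 only.

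BCL2 family members differed in 11 of 15 tested (73.3%, against 45.7% of all genes), 6 higher and 5 lower in A549. MCL1, a short-lived survival protein, fell from 176, 181 and 182 FPKM to 120, 114 and 127 FPKM in A549 and rose from 134, 135 and 133 FPKM to 165, 159 and 167 FPKM in H446 (difference -0.86, adjusted p = 2.15e-08). The lines thus exchanged their order. BAX, the pore former, rose from between 62.1 and 69.1 FPKM to between 106 and 115 FPKM in A549 and fell from between 25.5 and 26.6 FPKM to between 20.4 and 23.3 FPKM in H446, the latter a fall that missed the threshold once the GC trend was removed (-0.11, adjusted p = 0.0825). BBC3 (PUMA) differed by 0.83, PMAIP1 (NOXA) was opposite with -0.25 and 0.44, and BCL2L11 (BIM) rose in A549 only (0.61).

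TGF-beta and matrix genes differed in 11 of 14 (78.6%, against 45.7% of all genes), 8 of them lower in A549. THBS1, a matrix protein that activates TGF-beta, was opposite (-0.42 ± 0.06 and 0.36 ± 0.06), as were TGFB2 (-0.22 and 0.40) and SKIL (-0.34 and 0.15, in 9 of the 15 alternatives). Of the epithelial and mesenchymal genes 9 of 12 differed (75%, against the same 45.7%), 3 higher and 6 lower in A549, and 2 were higher and 4 lower with the GC trend removed. SNAI2 was opposite (-0.44 and 0.36), but with all 18 libraries in 1 fit its difference missed the threshold (-0.79, adjusted p = 0.123, limma). CDH2 (N-cadherin) was an A549-only fall (difference -0.47). KRT7 fell in both, further in A549 (difference -0.46), and its H446 fall missed the threshold once the GC trend was removed (-0.08, adjusted p = 0.149). Among neuroendocrine genes 6 of 17 were tested and 5 differed (83.3%, against 45.7%). UCHL1 fell in H446 (-0.53) and rose slightly in A549 (0.09), a rise that was lost under quantile normalization (-0.02) and after rescaling (0.08), so that its class held in 8 of the 15 alternatives, while SCG2 (-0.42) and SCG5 (-0.39) were at or below 2.48 FPKM in every library. The difference of SCG5 missed the threshold with the GC trend removed (adjusted p = 0.0503), with no filter on low values (0.0943) and without each of 7 single libraries (0.054 to 0.108).

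Further members changed their class with the scaling. Under quantile normalization, PLK1, BUB1, ATF4, CALR and CCNE2 counted as shared and FEN1 as opposite, and IL1B and TNFAIP3 lost their line-only class. ASNS counted as A549-only under quantile normalization and after rescaling, and ATM and XRCC5 lost the call of the difference after rescaling. SDHB counted as H446-only under quantile normalization and as opposite after rescaling. With the GC trend removed, RRM2B, TIGAR, AKR1C1 and PFKL counted as A549-only, FDXR as shared and SESN2 and AKR1C2 as opposite, and F3 had no called response. FANCL, ZMAT3 and CRELD2 were each opposite in 1 of the 3 scalings.

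**Figure D4:**
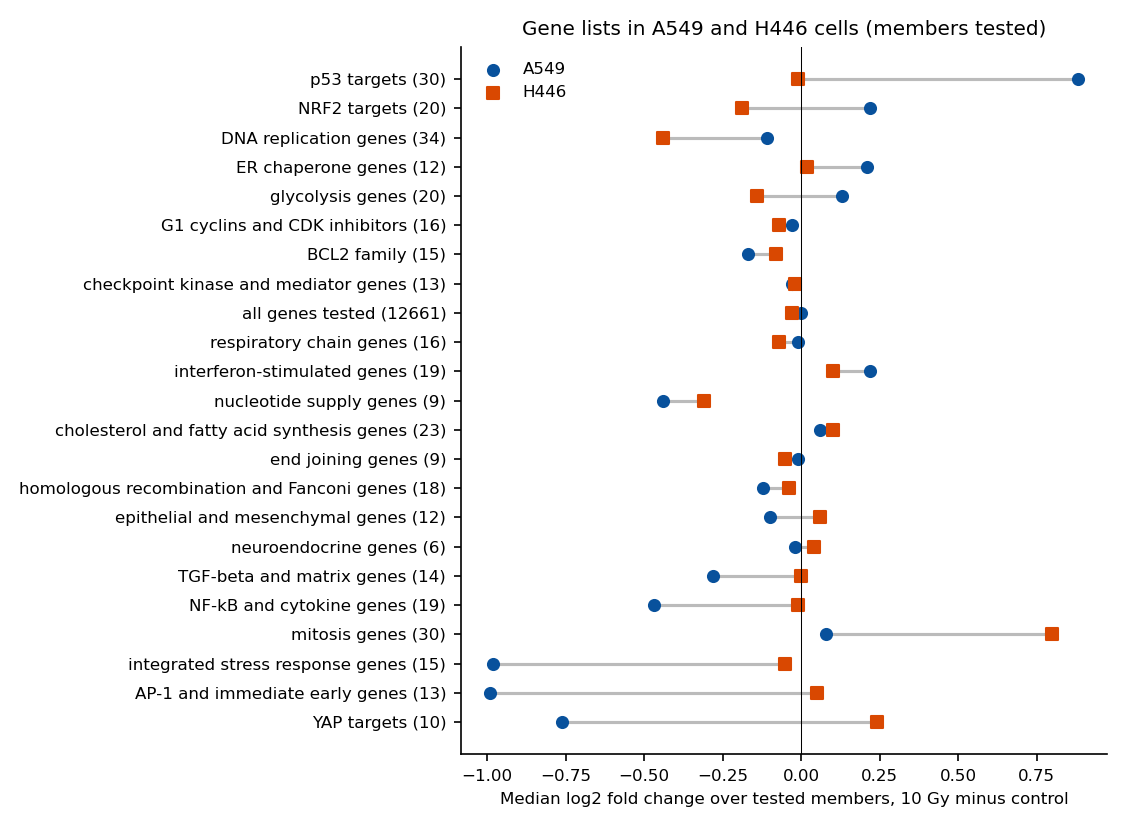
For each gene list, with the number of members tested in brackets, the circle gives the median log2 fold change (10 Gy minus control) over its members in A549 and the square the same in H446. Lists are ordered by the median difference, with p53 targets at the top (0.88 and -0.01) and YAP targets at the bottom (-0.76 and 0.24). All genes tested lie near 0 in both lines.

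Of the 1182 genes that passed the filter in A549 only, 451 (38.2%) had a called response and difference, and of the 668 in H446 only, 142 (21.3%). Where the other line is near 0 FPKM, a fall cannot show in it, and the difference then largely repeats a fall in the line that expresses the gene. THSD1, a membrane protein with a thrombospondin domain, rose from 4.65, 4.92 and 4.63 FPKM to 13.2, 14.2 and 14.3 FPKM in A549 and stayed between 0.14 and 0.27 FPKM in H446 (difference 1.41). LRRC26, a subunit of potassium channels, fell from 7.89, 9.52 and 8.48 FPKM to 3.27, 2.94 and 1.89 FPKM in H446 and stayed at or below 0.19 FPKM in A549, too low for a fall to show there. SNCG (gamma-synuclein) fell from between 32.3 and 32.9 FPKM to between 22.2 and 26.2 FPKM in H446, and in A549 rose from between 0.51 and 0.77 FPKM to between 0.96 and 1.55 FPKM, a called response below the filter (0.42, adjusted p = 0.00129, difference 0.87).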

How the data were processed

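Poly(A) mRNA of 18 libraries was sequenced as single-end reads on a BGISEQ-500, and the 12 A549 and H446 libraries were used. The authors deposited 1 table of normalised values per gene and library, taken here as FPKM because the unit is not named in it. The submitters' processing notes name HISAT2 2.0.4, Bowtie2 2.2.5, RSEM 1.2.12 and hg38 without roles or order, and the annotation and the strand of counting are not given in the sources used here.

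From these values, log2(FPKM + 1) was fitted with limma 3.58.1 (R 4.3.3) as 4 group means with a trend of the variance on the mean, and the contrasts were each line's response and their difference. A gene was tested if 3 or more of the 6 libraries of either line reached 1 FPKM, and Benjamini-Hochberg adjusted p under 0.05 was called. The scripts were tested on simulated data, where small planted differences were often missed. A first criterion for recovery, pooled over all planted sizes, was not met, and it was then set for the larger sizes only. Figures were drawn in matplotlib 3.10.9, and tables were joined in pandas 2.3.3 under Python 3.11.15. Promoters and gene positions came from RefSeq (GRCh38.p14), and 10314 of the 12661 genes had a promoter entry.

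The comparison, the gene lists and the members were chosen with earlier results of these data known. Genes of a class were named by rank among those with a mean of at least 5 FPKM in each line and no overlap in a called response, opposite and shared genes by the smaller of both responses and line-only genes by the difference. Up to 3 genes per list were named by the difference, without these limits. Further list members named as examples were chosen after their values were seen. One gene that the rule chose is not reported here. Gene positions are those of the reference and not of the deposited table. The alternatives were quantile normalization, rescaling to equal totals, removal of a loess trend on GC content (span 0.5), limma without a trend, all 18 libraries in 1 fit, each line fitted alone, no filter or a stricter one, a pseudocount of 0.1, a replicate block, and each library left out. Deviations of same-numbered libraries from their group means correlated at -0.09 to 0.00 in A549 and 0.02 to 0.18 in H446, so the numbers were not taken as pairs.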

Additional observations from a re-analysis of the deposited data

Results flagged for a closer look

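The response differed between A549 and H446, by the test of the difference itself, for 5791 genes, and 1061 genes responded in opposite directions (575 with all 18 libraries in 1 fit). The differences given here are A549 minus H446 on the log2(FPKM + 1) scale. They were picked out because the limma test of the difference passed, and no explanation was weighed.

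Among genes with opposite responses, the difference was 2.24 for PCNA, 2.34 for ALDH3A1, 1.54 for FAM20C, 1.24 for SFN, 1.31 for GDF15, 1.16 for SDC1, 1.67 for CDKN1A, 0.78 for LIG1, 1.05 for TYMS, 0.42 for FANCL, 0.69 for RAD9A, 1.44 for CCNE1, 0.96 for BAX and 1.24 for AKR1C3. It was further 0.66 for FASN, 0.59 for CRELD2, 1.12 for ENO2, 0.59 for PFKFB3, 0.55 for PFKL and 0.62 for UCHL1. In the reverse direction, the difference was -3.16 for CYR61, -1.06 for SNAPC1, -2.41 for CTGF, -2.13 for DDIT3, -1.6 for STC2, -0.92 for CXCL8, -1.01 for CENPA, -0.94 for AURKB, -0.44 for BLM, -0.86 for MCL1, -0.98 for DDX58, -0.63 for CYP51A1, -1.75 for PPP1R15A and -0.86 for HERPUD1. It was further -1.36 for ATF3, -1.34 for KLF6, -2.43 for ANKRD1, -0.78 for THBS1, -0.62 for TGFB2, -0.50 for SKIL and -0.79 for SNAI2. Among genes that moved the same way with unequal size, the difference was 0.21 for CD24, 0.23 for WDR76, 0.61 for MCM5, 0.75 for MCM4, 0.95 for UNG, 0.63 for IFIT1 and 0.99 for AKR1C1. With the lower response in A549, the difference was -0.27 for KIF20B, -0.42 for CCNB1, -1.0 for CTPS1, -0.60 for EXO1, -1.71 for TRIB3 and -0.46 for KRT7. Where a response was called in A549 only, the difference was 1.87 for MDM2, 1.53 for SAA1, 1.5 for POLH, 1.73 for FDXR, 0.22 for TP53BP1, 0.83 for BBC3, 0.46 for ISG15, 1.0 for AKR1C2, 0.36 for SDHA and 0.35 for COX7A2. For A549-only genes with the lower response in A549, the difference was -1.37 for TSC22D3, -1.30 for MAFF, -1.23 for TNFRSF12A, -0.31 for XRCC6, -0.25 for DCLRE1C, -0.84 for IL1A, -0.86 for XBP1, -0.21 for SDHB and -0.47 for CDH2. Where a response was called in H446 only, the difference was 1.09 for LRRC45, 1.03 for FAM111B, 0.83 for CENPX, 0.62 for CLSPN and 1.03 for CCNE2. For H446-only genes with the lower response in A549, the difference was -1.05 for KIF2C, -1.03 for CEP55, -1.03 for MTFR2 and -0.34 for WEE1. Of genes that passed the filter in 1 line only, the difference was 1.41 for THSD1, 1.48 for LRRC26 and 0.87 for SNCG. With the lower response in A549 in such genes, the difference was -1.95 for EGR1, -1.35 for CCL20, -0.42 for SCG2 and -0.39 for SCG5. For LRRC26, EGR1 and SCG2, the line below the filter was too low for a like fall to show, so these values largely repeat the fall in the line that expresses the gene. CCL20 was also too low in the H446 controls, at 0.37 to 0.73 FPKM, for a like fall to show, and its rise there was below the filter.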

How the results depend on the processing

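The count of genes that differed in response stayed between 4547 and 5791 over the alternatives with all A549 and H446 libraries, and between 5243 and 5810 when 1 library was left out. With all 18 libraries in 1 fit, 575 genes were opposite and 786 shared, and the differences of GDF15 (1.31, adjusted p = 0.137), KIF20B (-0.27, 0.2), SNAI2 (-0.79, 0.123), ISG15 (0.46, 0.234) and TP53BP1 (0.22, 0.0599) missed the threshold; the cause was not tested. Without 1 library, opposite genes numbered 818 to 1116, shared 1087 to 1375, A549-only 2077 to 2485 and H446-only 888 to 1249. The split of higher to lower differences was 3226 to 2565, and 2907 to 2859 under quantile normalization, 2716 to 2698 after rescaling and 3017 to 2689 with the GC trend removed.

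With the replicate number as a block, 5443 genes differed, 906 were opposite, 1204 shared, 2310 A549-only and 1072 H446-only. Of the 92 genes named by the rule, the difference of DCLRE1C missed the threshold under the block (-0.25, adjusted p = 0.0663) and the other differences of these 92 genes kept their call. The numbers do not pair the libraries, and not every library correlated best with its own number.

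Of 2023 values of these 92 genes, 14 changed sign, 36 missed the threshold and 0 newly passed it. The changes of sign were in 3 shared genes whose difference was not called: CCNG2 (-0.02 after rescaling, -0.02 to 0.04 without 1 library), MCM6 (-0.01 after rescaling and -0.01 without A549 control replicate 1) and EXOSC5 (0.00 with a pseudocount of 0.1, -0.10 to 0.08 without 1 library). The files hold no read counts, so what depth limits could not be computed, and small differences can have been missed.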

Other observations

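The series also holds 6 libraries of BEAS-2B, a line of bronchial epithelial cells, which enter no comparison above beyond the fit of all 18 libraries. PCNA was at 459, 444 and 476 FPKM in the BEAS-2B controls and at 434, 445 and 483 FPKM after 10 Gy, and these groups overlapped. CYR61 was at 403, 479 and 380 FPKM and then at 552, 435 and 451 FPKM, also with overlap. GDF15 was at 2.18, 1.85 and 1.96 FPKM in the controls and at 29.7, 3.01 and 32.1 FPKM after 10 Gy, where replicate 2 lay far below the other irradiated libraries. DDIT3 showed the same spread, at 16.9, 16.1 and 16.1 FPKM and then at 31.4, 13.0 and 43.9 FPKM. Values are given without a test.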
